A study of Mus musculus with 6 samples.

Results

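The genes described here are 36 genes of antioxidant defence: the NRF2 regulators, heme oxygenase and quinone reductase, and the enzymes of the glutathione, thioredoxin, peroxiredoxin and superoxide dismutase systems. They were chosen by name, as the genes of the deposited count table whose gene name equals an entry of a list, and all 36 were found among the 54532 genes of the table. RNA was sequenced from N9 microglia, an immortalized microglial line derived from mouse brain and grown in medium with fetal bovine serum. The control group held 3 libraries of untreated cells and the LPS group held 3 libraries of cells stimulated for 6 h with LPS at 1 µg/ml. LPS, lipopolysaccharide, comes from the outer membrane of gram-negative bacteria. The comparison asks how the transcription of LPS-stimulated N9 microglia differs from that of control cells. All 6 libraries come from the same cell line, and the labels do not say whether the replicates were separate cultures, so P-values measure the spread between these samples only.

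Cells that make reactive oxygen species carry several systems to remove them. NRF2, encoded by Nfe2l2, is a transcription factor that KEAP1 holds in the cytoplasm and sends to degradation. When oxidants or electrophiles modify KEAP1, NRF2 enters the nucleus, pairs with a small MAF protein and binds antioxidant response elements, where BACH1 competes with it. Superoxide dismutases turn superoxide into hydrogen peroxide, which catalase, the peroxiredoxins and the glutathione peroxidases then reduce. Peroxiredoxins are recharged by thioredoxin and thioredoxin reductase, and glutathione peroxidases by glutathione and glutathione reductase. In macrophages and microglia these systems work beside the oxidant burst that follows contact with bacteria.

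The libraries held between 16363767 and 17956772 counts, at which 3 counts correspond to between 0.161 and 0.19 CPM, the count relative to library size. The library sizes behind CPM were scaled by TMM, the trimmed mean of M-values, with factors between 0.9646 and 1.036. Values per library are listed in the order of replicates 1, 2 and 3. The 15 microglia and macrophage markers summed to between 3380 and 3490 CPM, although Aif1 had at most 9 counts and P2ry12 at most 6 in any library. This sum hides single markers that moved in opposite directions. Trem2 had 2397, 2462 and 2503 counts in control and 1481, 1497 and 1705 in LPS. Spi1 had 5016, 4804 and 5242 in control and 6762, 7114 and 6705 in LPS. The 24 hepatocyte markers summed to 93, 491 and 657 counts in the control libraries and to 82, 89 and 117 counts in the LPS libraries. Ambp, the most counted of them, gave 86, 124 and 112 of these counts in control and 74, 80 and 100 in LPS. Control replicates 2 and 3 thus stood apart from the other 4 libraries on this list, and counts of called genes are also given with control replicate 1 alone as the control.

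The antioxidant genes that changed most were up-regulated in LPS-stimulated N9 microglia: mitochondrial superoxide dismutase Sod2 rose 2.8-fold, heme oxygenase Hmox1 2.45-fold, peroxiredoxin Prdx5 1.69-fold, sulfiredoxin Srxn1 1.66-fold and peroxiredoxin Prdx1 1.44-fold. The largest fall was that of Gclc, the catalytic subunit of the enzyme that begins glutathione synthesis, which was 25.7% lower. In these bulk libraries, fewer cells of a type and less RNA per cell cannot be told apart. Of the 36 genes, 33 passed the filter on low counts, 11 were higher with LPS and 2 were lower at an edgeR adjusted P under 0.05, and 20 were not called. The share called was 39.4% of the 33, beside 34.3% of the 12296 genes tested. The share higher was 33.3% beside 18.7% of all tested genes, and the share lower was 6.06% beside 15.7%. With control replicate 1 alone as the control, 10 of the 33 were higher and 1 was lower, where 1681 of the 12940 genes tested in that fit were higher and 1151 lower.

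Changes were small in size. The median log2FC of the 33 tested genes was 0.08, beside 0.004 over all tested genes, and the median absolute log2FC was 0.12, beside 0.17. The fitted values ran from -0.43 to 1.48, and 2 called genes, Sod2 and Hmox1, changed by more than 2-fold. No gene of the 33 passed both an adjusted P under 0.05 and an absolute log2FC over 1.5, the call rule of the study, which 2.65% of all tested genes passed in edgeR (2.4% higher and 0.252% lower with LPS). The count was 0 in DESeq2 too and at an unadjusted P under 0.05, although 14 of the 33 had such a P in edgeR. Sod2 lay just under the log2FC threshold. All 3 LPS libraries lay above all 3 control libraries for 13 of the genes and below them for 2, a share that was 23.7% and 21.5% over all tested genes. With LPS the genes together took 0.701%, 0.67% and 0.681% of all counts, against 0.551%, 0.543% and 0.55% without it, so the groups did not overlap.

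**Figure D1:**
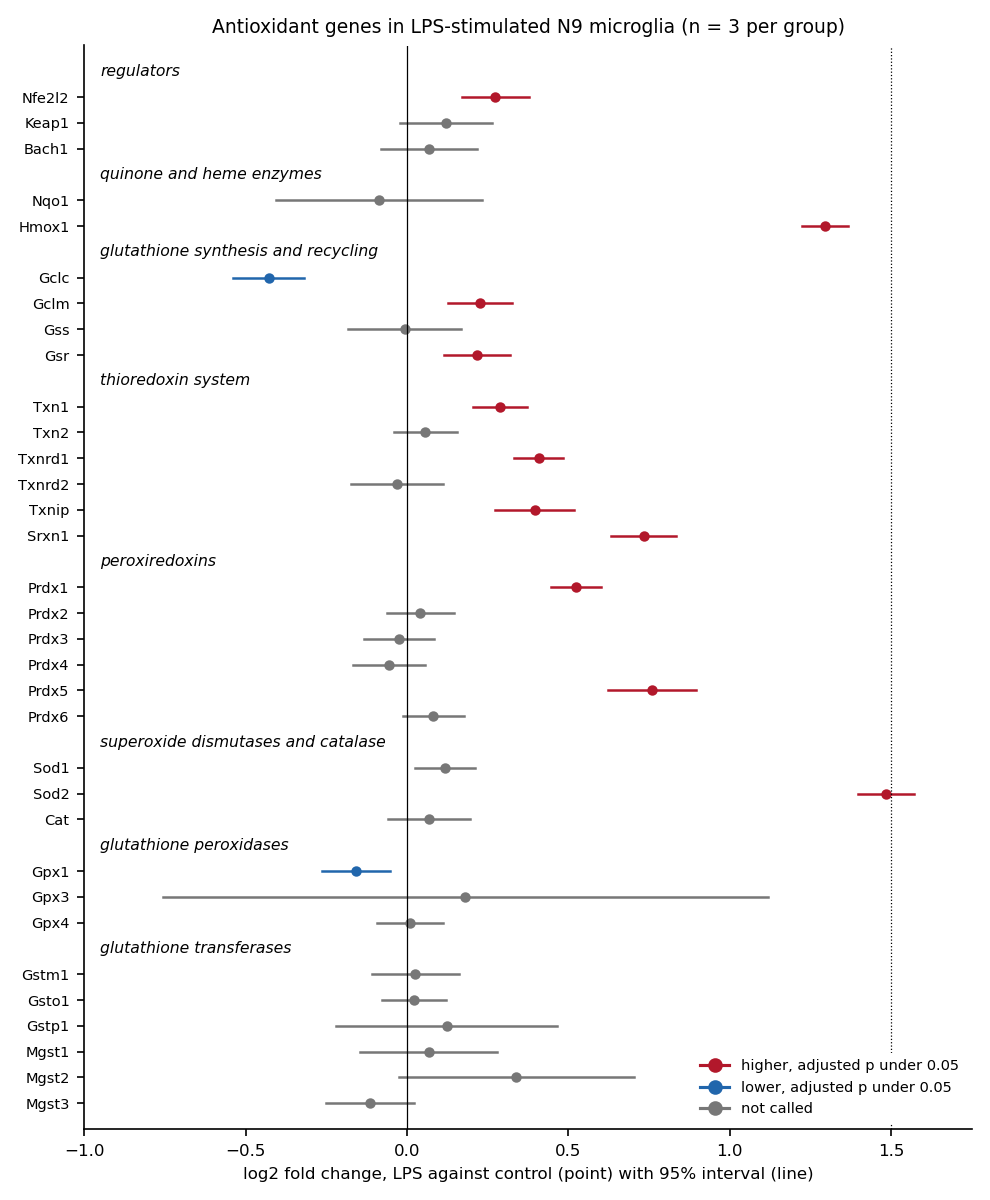
Log2 fold change of LPS against control (horizontal axis) for the 33 tested antioxidant genes, grouped by role; points are edgeR estimates, lines are 95% intervals, and the dotted line marks a log2FC of 1.5. Sod2 at 1.48 and Hmox1 at 1.29 stand to the right of all other genes, Gclc at -0.43 stands farthest to the left, and the 6 glutathione transferases have intervals that include 0.

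The promoters of the most changed genes are shown so that the letters of motifs bound by NRF2, AP-1 and NF-kappa B can be seen in their place before each start. Promoter windows came from RefSeq on GRCm38.p6, which covered 31 of the 36 genes with 38 windows, and the 250 bases before each start were searched on both strands. Hmox1, Gclc, Gsr, Prdx6 and Sod3 had no entry. Starts are those of RefSeq, which can differ from the deposited gene models: the Sod2 window lies wholly inside the deposited gene, and those of Srxn1 and Prdx1 run past the deposited start. The windows below are those of the genes with an entry whose change was larger than that of Txnrd1, printed 5′ to 3′ on the strand of the gene, with matches in capitals. In order, the windows are chr17:13007589-13007838 on the + strand, chr19:6910107-6910356 on the - strand, chr2:152105274-152105523 on the + strand and chr4:116685349-116685598 on the + strand.
Sod2: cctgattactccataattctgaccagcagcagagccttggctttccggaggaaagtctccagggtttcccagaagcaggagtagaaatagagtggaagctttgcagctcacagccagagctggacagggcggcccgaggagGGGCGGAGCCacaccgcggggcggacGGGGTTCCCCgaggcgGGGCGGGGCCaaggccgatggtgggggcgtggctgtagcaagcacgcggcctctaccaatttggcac
Prdx5: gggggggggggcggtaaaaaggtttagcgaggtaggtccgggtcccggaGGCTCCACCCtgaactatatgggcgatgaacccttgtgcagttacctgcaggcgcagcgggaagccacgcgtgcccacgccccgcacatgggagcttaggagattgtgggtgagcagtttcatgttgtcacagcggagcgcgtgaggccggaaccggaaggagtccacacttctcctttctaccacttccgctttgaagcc
Srxn1: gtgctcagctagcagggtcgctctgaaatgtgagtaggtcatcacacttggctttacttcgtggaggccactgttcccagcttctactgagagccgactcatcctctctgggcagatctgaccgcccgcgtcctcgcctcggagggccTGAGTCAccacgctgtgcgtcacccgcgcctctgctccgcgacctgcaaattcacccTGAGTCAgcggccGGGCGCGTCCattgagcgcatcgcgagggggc
Prdx1: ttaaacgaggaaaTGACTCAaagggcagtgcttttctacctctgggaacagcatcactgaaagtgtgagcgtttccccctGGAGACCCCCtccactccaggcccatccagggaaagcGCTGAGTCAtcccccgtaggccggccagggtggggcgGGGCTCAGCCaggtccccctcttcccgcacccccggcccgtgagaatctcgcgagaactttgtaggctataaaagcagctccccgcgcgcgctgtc

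The core letters of the antioxidant response element, TGACNNNGC, occurred in 10.2% of the 32851 promoter windows of the same length. They occurred in 4 of the 11 windows of genes higher with LPS, namely those of Nfe2l2, Gclm, Prdx1 and the second listed window of Txnrd1, and in 2 of the 24 windows of genes that were tested and not called, those of Mgst1 and Sod1. The AP-1 letters TGANTCA occurred in 6.75% of all windows, and among the genes here in those of Srxn1, Prdx1, Mgst2 and Gstp1. Srxn1 held them between 102 and 96 bases and again between 45 and 39 bases before its start. In Prdx1 the match to the antioxidant response element core between 133 and 125 bases before the start overlaps an AP-1 match, and the capitals there mark both. The NF-kappa B letters, GGG followed by 5 bases of any kind and CC, are loose and occurred in 45.8% of all windows, in 8 of the 11 windows of genes higher with LPS and in 19 of the 24 windows of genes not called. Sod2 held GGGGTTCCCC, which matches on both strands, between 83 and 74 bases before its RefSeq start, and 2 further matches. A match is a description of letters and does not show that a factor binds there.

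Among the 3 regulators, Nfe2l2 rose and its inhibitors Keap1 and Bach1 were not called. Nfe2l2 (chr2:75675513-75704641) was at 125.5, 134.5 and 132 CPM in the control libraries and at 165.9, 154.5 and 153.6 CPM in the LPS libraries. All LPS libraries lay above all control libraries, and the change was 20.9% upward (log2FC = 0.27, SE 0.0484, edgeR adjusted P = 0.000438). Keap1, the substrate adaptor that marks NRF2 for degradation, had means of 60.8 ± 2.11 and 66 ± 6.35 CPM (SD, n = 3), with a 95% interval of its log2FC from -0.02 to 0.26. Bach1, the repressor that competes with NRF2 for its sites, had means of 41.2 ± 0.225 and 43.2 ± 3.73 CPM, with an interval from -0.08 to 0.22. For both, the groups overlapped.

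The NRF2-regulated enzymes Hmox1 and Nqo1 gave unlike results. Hmox1, which breaks heme down to biliverdin, carbon monoxide and iron, was at 377.9, 375.6 and 376.1 CPM in the control libraries and at 930.9, 913.1 and 927.4 CPM in the LPS libraries (chr8:75093621-75100589). The libraries within a group differed little and the groups lay far apart (log2FC = 1.29, SE 0.0335, edgeR adjusted P = 3.12e-13). Nqo1, the quinone reductase that is a standard readout of NRF2 activity, was counted between 115 and 175 times per library. Its means were 8.94 ± 1.23 CPM in control and 8.41 ± 1.3 CPM in LPS (SD, n = 3). The groups overlapped, and the interval of its log2FC ran from -0.41 to 0.23.

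**Figure D2:**
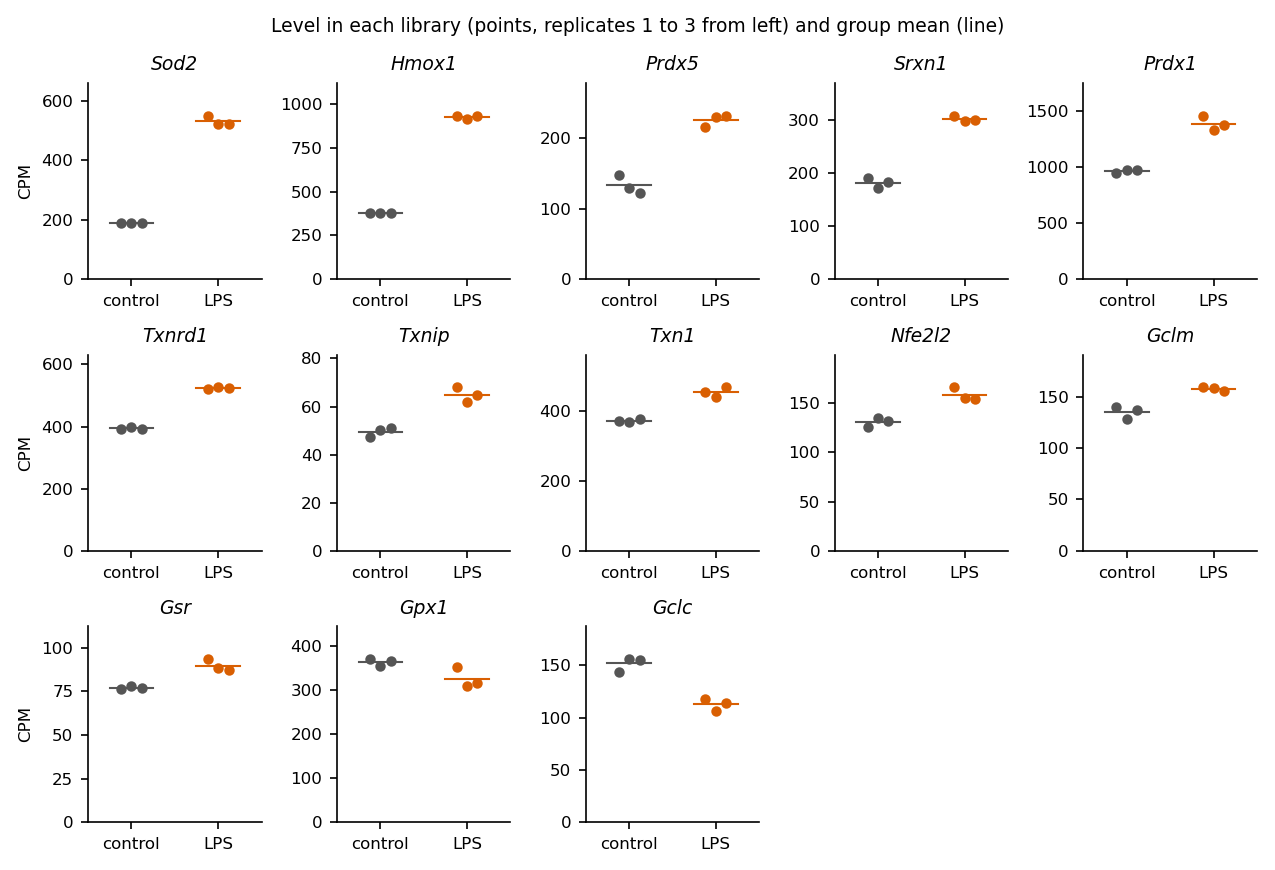
CPM in each library (vertical axis, from 0) of the 13 called antioxidant genes, ordered by log2 fold change; points are replicates 1 to 3 from left and lines are group means. The groups do not overlap in any of the 13 panels, and Gpx1 is the gene whose groups come closest, with LPS replicate 1 at 351.8 CPM just below control replicate 2 at 353.5 CPM.

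In glutathione synthesis, the 2 subunits of glutamate-cysteine ligase changed in opposite directions. Gclc, the catalytic subunit, was at 144, 156.4 and 155.3 CPM in the control libraries and at 117.8, 106.8 and 114.1 CPM in the LPS libraries (chr9:77754535-77794485). It was lower in every LPS library than in every control library (log2FC = -0.43, SE 0.0514, edgeR adjusted P = 1.12e-05). The log2FC of Gclc ran from -0.48 to -0.39 over the fits that left out 1 library, and from -0.48 to -0.35 over all alternatives. Gclm, the modifier subunit, was at 139.5, 127.9 and 137 CPM in control and at 159, 158.4 and 155.5 CPM in LPS (chr3:122245557-122270732). It was higher in every LPS library (log2FC = 0.23, SE 0.0465, edgeR adjusted P = 0.00152), but with control replicate 1 alone as the control its log2FC was 0.18 with an adjusted P of 0.0726. Over all alternatives the adjusted P of Gclm ran from 8.43e-05 to 0.0726, and that of Gclc from 7.1e-17 to 0.00317.

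Glutathione synthetase Gss, which completes the tripeptide, was not called, with an interval of its log2FC from -0.18 to 0.17. Gss overlaps Acss2 on the other strand, which was counted between 230 and 355 times and fell (log2FC = -0.29, edgeR adjusted P = 0.0264). Whether reads were counted by strand is not given in the sources used here. Glutathione reductase Gsr, which returns oxidized glutathione to its reduced form, rose by 16.3%. It was at 76.5, 78.3 and 76.7 CPM in the control libraries and at 93.7, 88.2 and 87.2 CPM in the LPS libraries (log2FC = 0.22, SE 0.0478, edgeR adjusted P = 0.00246). Its groups did not overlap.

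In the thioredoxin system 4 of the 6 genes rose and none fell, where 18.7% of all tested genes were higher and 15.7% lower, and the median log2FC was 0.34. Cytosolic Txn1 and Txnrd1 were among those that rose, and their mitochondrial counterparts Txn2 and Txnrd2 were not called. Txn1, the cytosolic thioredoxin (chr4:57943373-57956411), was at 373.7, 368.7 and 377.5 CPM in control and at 456.9, 441.9 and 469.5 CPM in LPS (log2FC = 0.29, SE 0.0388, edgeR adjusted P = 3.48e-05). Txnrd1, the cytosolic selenoprotein reductase that recharges thioredoxin (chr10:82833951-82897712), was at 393.1, 398.3 and 393.7 CPM in control and at 520.3, 526.5 and 525.2 CPM in LPS (log2FC = 0.41, SE 0.0356, edgeR adjusted P = 3.7e-07). For both genes every LPS library exceeded every control library. Txn2 had means of 212.9 ± 10.2 and 221.3 ± 1.42 CPM (SD, n = 3), with an interval of its log2FC from -0.04 to 0.15. Txnrd2 had means of 39 ± 0.878 and 38.1 ± 2.18 CPM, with an interval from -0.17 to 0.11.

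Txnip, which binds thioredoxin and inhibits it, rose with its partners. It was at 47.2, 50.1 and 50.9 CPM in the control libraries and at 68, 62.1 and 64.9 CPM in the LPS libraries (log2FC = 0.4, SE 0.0574, edgeR adjusted P = 7.65e-05). Srxn1, sulfiredoxin, repairs peroxiredoxins whose active cysteine has been overoxidized, and its promoter letters are given above. It was at 190.1, 171.4 and 183 CPM in control and at 308, 297.7 and 299.5 CPM in LPS (log2FC = 0.73, SE 0.0469, edgeR adjusted P = 1.1e-08). The groups lay apart for both genes, and both kept their call in all 15 alternatives.

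Of the 6 peroxiredoxins, Prdx1 and Prdx5 rose and the other 4 were not called, a called share of 33.3% beside 34.3% of all tested genes. Prdx1, an abundant cytosolic peroxidase (chr4:116685544-116700822), was at 942.6, 975.7 and 971 CPM in the control libraries and at 1456, 1327 and 1370 CPM in the LPS libraries (log2FC = 0.52, SE 0.0362, edgeR adjusted P = 2.77e-08). Prdx5, found in mitochondria, peroxisomes and the cytosol (chr19:6906697-6910106), was at 148, 129.4 and 121.8 CPM in control and at 214.5, 229.5 and 231 CPM in LPS (log2FC = 0.76, SE 0.0632, edgeR adjusted P = 2.24e-07). Neither gene had overlapping groups. Prdx5 overlaps Trmt112 on the other strand, which was counted between 725 and 857 times and was not called (log2FC = 0.15, edgeR adjusted P = 0.0814).

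Prdx2, Prdx3 and Prdx4, peroxidases of the cytosol, the mitochondria and the endoplasmic reticulum, had log2FC of 0.04, -0.02 and -0.06. Their intervals ran from -0.06 to 0.15, from -0.13 to 0.08 and from -0.17 to 0.05. Prdx2 overlaps Junb on the other strand, which rose (log2FC = 1.09). Prdx6, which uses glutathione in place of thioredoxin, was at 191.2, 184 and 194.7 CPM in control and at 203.5, 204.7 and 194.8 CPM in LPS, so the lowest LPS library lay just above the highest control library. It did not pass the test (log2FC = 0.08, edgeR adjusted P = 0.18).

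Sod2 and Sod1 differed. Sod2, the manganese superoxide dismutase of mitochondria (chr17:13006846-13040063), was at 191.3, 189.1 and 190.2 CPM in the control libraries and at 550.4, 523.6 and 521.8 CPM in the LPS libraries. The lowest LPS library lay far above the highest control library (log2FC = 1.48, SE 0.0404, edgeR adjusted P = 5.33e-13), and the interval from 1.4 to 1.57 includes the threshold of 1.5. Sod1, the copper and zinc enzyme of the cytosol, was at 171.1, 162 and 162.1 CPM in control and at 179.7, 177.7 and 179.5 CPM in LPS. Its groups did not overlap, and it missed the threshold (log2FC = 0.12, SE 0.0434, edgeR adjusted P = 0.0509). Over the alternatives the adjusted P of Sod1 ran from 0.0332 to 0.524, and it was called without control replicate 1 at 0.0332 and with robust dispersion at 0.038. Sod1 also overlaps Scaf4 on the other strand, which rose (log2FC = 0.31). Catalase Cat, the peroxisomal enzyme that splits hydrogen peroxide, was not called, with means of 91.4 ± 6.21 and 95.9 ± 6.13 CPM (SD, n = 3) and an interval from -0.06 to 0.2. Sod3, the secreted form, had 1 count in control replicate 1, 1 in LPS replicate 1 and 0 in the other 4 libraries, at or under the floor of 3 counts throughout.

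Of the 3 glutathione peroxidases tested, Gpx1 fell and the other 2 were not called, a called share of 33.3% beside 34.3% of all tested genes. Gpx1, the cytosolic selenoenzyme (chr9:108338903-108340343), was at 370.9, 353.5 and 365.9 CPM in the control libraries and at 351.8, 309.3 and 316.8 CPM in the LPS libraries. The highest LPS library lay just under the lowest control library (log2FC = -0.16, SE 0.0494, edgeR adjusted P = 0.0233). The call was lost without control replicate 3 at an adjusted P of 0.0697, without LPS replicate 2 at 0.124, without LPS replicate 3 at 0.0933 and with control replicate 1 alone as the control at 0.0916, and the range over all alternatives was 0.000984 to 0.124. Gpx4, which reduces lipid hydroperoxides in membranes, had means of 200.5 ± 2.35 and 201.9 ± 11.3 CPM (SD, n = 3) and an interval from -0.09 to 0.11. Gpx3, the plasma form, was counted between 6 and 13 times per library, and its interval from -0.76 to 1.12 was the widest of the 33. Gpx7 had 1 count in control replicate 1 and Gpx8 1 count in LPS replicate 1, with 0 in the other 5 libraries of each.

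None of the 6 glutathione transferases passed the test, which 34.3% of all tested genes passed, and their groups overlapped in every case, where those of 45.3% of all tested genes did not. Gstm1, Gsto1 and Gstp1 are soluble enzymes, and Mgst1, Mgst2 and Mgst3 sit in membranes. Their log2FC ran from -0.12 in Mgst3 to 0.34 in Mgst2. Mgst2 was at 5.78, 6.12 and 7.37 CPM in control and at 7.04, 7.14 and 10.2 CPM in LPS, with an interval from -0.03 to 0.7 and an edgeR adjusted P of 0.145. The intervals of Gstm1 and Gsto1 were narrow, from -0.11 to 0.16 and from -0.08 to 0.12, while that of Gstp1, counted between 84 and 106 times, ran from -0.22 to 0.46. Mgst1 had an interval from -0.14 to 0.28 and Mgst3 from -0.25 to 0.02. Gsto1 overlaps Cfap43 on the other strand, which was counted between 613 and 845 times. Gstm1 and Gstp1 have close paralogs, and how reads shared between them were counted is not given in the sources used here.

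Per length, the order of the most abundant antioxidant transcripts differed between the groups. In control cells the level per kilobase of gene length was highest for Txn1 (355.2 ± 4.21 CPM per kb, SD, n = 3), followed by Prdx1 (316.5 ± 5.88), Gpx1 (252.2 ± 6.22) and Hmox1 (215 ± 0.691). These 4 levels lay further apart than their SD. In LPS-stimulated cells Hmox1 came first (527.6 ± 5.38 CPM per kb), followed by Prdx1 (454.9 ± 21.6), Txn1 (433.9 ± 13.1) and Gpx1 (226.2 ± 15.7), and the levels of Prdx1 and Txn1 did not differ beyond their SD. Sod2 moved from rank 23 at 19 CPM per kb to rank 13 at 53.2 CPM per kb, and Gclc from rank 16 to rank 22. The length is that of the deposited gene model, 10008 bases for Sod2 and 1051 for Txn1, so the order of levels depends on the models. The lowest levels per length among the tested genes were those of Mgst2 and Gpx3, at 1.74 and 0.32 CPM per kb in control.

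**Figure D3:**
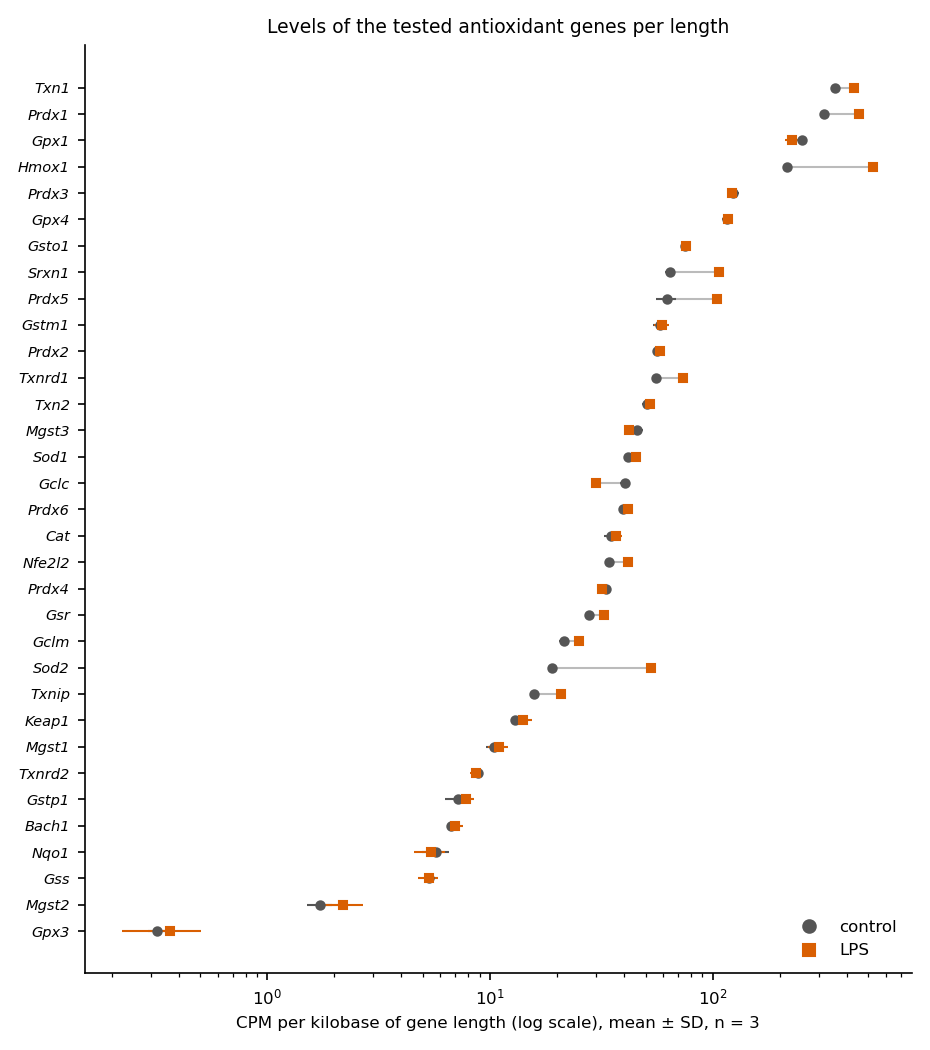
CPM per kilobase of gene length (horizontal axis, log scale) of the 33 tested antioxidant genes, as mean ± SD of 3 libraries per group, ordered by the control level. Hmox1, at 215 in control, has the highest LPS level at 527.6, and most genes that were not called have markers that coincide.

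Ratios of counts within a library do not depend on the scaling between libraries. The 9 pairs given here were chosen after the values were seen, so they are described without a test. The ratio of Sod2 to Sod1 was 1.12, 1.17 and 1.17 without LPS against 3.06, 2.95 and 2.91 with it. The ratio of Gclc to Gclm was 1.03, 1.22 and 1.13 in control and 0.741, 0.675 and 0.734 in LPS, so the catalytic subunit had more counts than the modifier in every control library and fewer in every LPS library. Among the cytosolic and mitochondrial counterparts, the mean ratio of Txnrd1 to Txnrd2 was 10.1 ± 0.255 in control and 13.8 ± 0.871 in LPS, and that of Txn1 to Txn2 was 1.76 ± 0.081 and 2.06 ± 0.0751 (SD, n = 3). Prdx1 to Prdx3 went from 5.28 ± 0.39 to 7.69 ± 0.114, and Prdx1 to Prdx2 from 5.63 ± 0.261 to 7.85 ± 0.277. The ratio of Prdx5 to Prdx3 was under 1 in every control library (0.727 ± 0.0537) and over 1 in every LPS library (1.25 ± 0.0931). Hmox1 had 42.7 ± 5.69 counts for each count of Nqo1 in control and 112 ± 18.4 in LPS. Bach1 to Nfe2l2 showed the smallest gap, from 0.307 to 0.327 in control and from 0.241 to 0.306 in LPS.

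**Figure D4:**
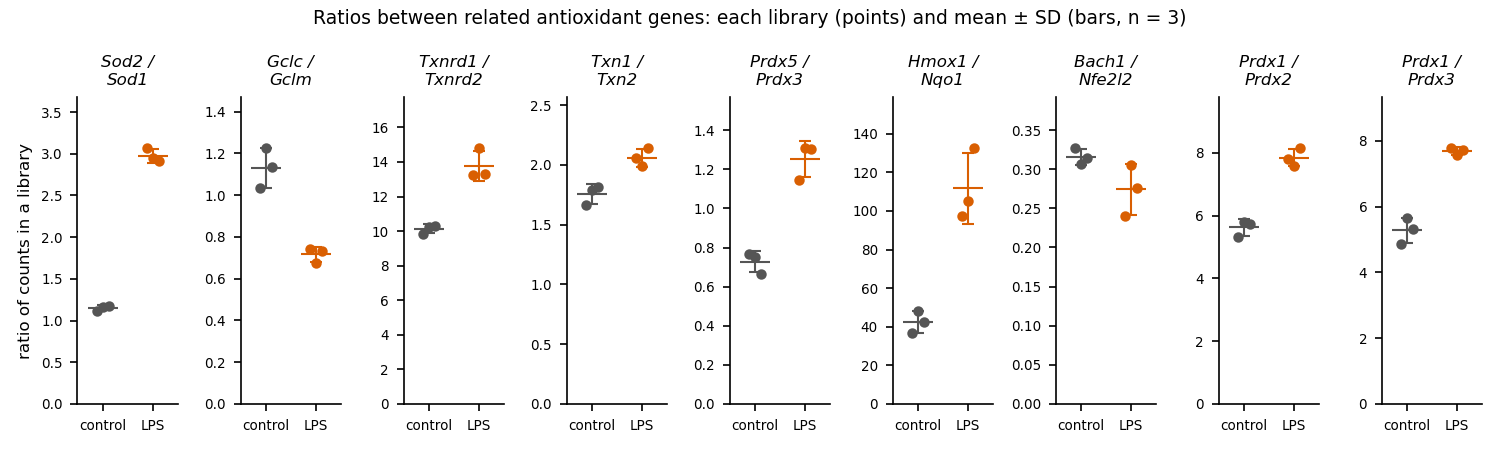
Ratio of the counts of related antioxidant genes in each library (vertical axis, from 0); points are replicates 1 to 3 from left, and bars are mean ± SD of 3 libraries. Gclc to Gclm lies above 1 in the 3 control libraries and below 1 in the 3 LPS libraries, and Sod2 to Sod1 goes from a mean of 1.15 to 2.97.

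Around these genes, 5 wider lists of the same pathways held 98 further genes, of which 78 were tested. Of the 78, 18 were higher (23.1%, beside 18.7% of all tested genes) and 16 lower (20.5%, beside 15.7%), with a median log2FC of -0.02. Both thresholds were passed by 3 of them, Slc7a11, Ptges and Selenop, beside 2.65% of all tested genes. For Selenop the log2FC was -0.75 with control replicate 1 alone as the control, which is not past the threshold. Without LPS replicate 2 the lower count was 10, and with control replicate 1 alone as the control 15 were higher and 12 lower. The shares from all 6 libraries lie near those over all tested genes, and the counts per list are given as a description. The partners and turnover factors of NRF2 had 6 of 10 tested genes higher and 1 lower. Other NRF2 target genes had 7 of 23 higher and 5 lower, other thioredoxin-fold and repair genes 1 of 15 higher and 4 lower, other glutathione and transferase genes 3 of 19 higher and 3 lower, and other superoxide, peroxide and selenoprotein genes 1 of 11 higher and 3 lower. Named below are the called genes with the largest rise and the largest fall of each list.

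Slc7a11, the cystine transporter that feeds glutathione synthesis, was at 34.2, 39.6 and 40.3 CPM in control and at 183.6, 190.6 and 196.4 CPM in LPS. It rose 4.995-fold (log2FC = 2.32, SE 0.0607, edgeR adjusted P = 3.4e-13), more than any of the 33 genes above, while Gclc fell. Sqstm1, the autophagy receptor p62 that binds KEAP1, rose from 422.3 ± 14.5 to 976.1 ± 14.2 CPM (SD, n = 3; log2FC = 1.21). Glrx, glutaredoxin, rose from 110.3 ± 2.92 to 194.6 ± 4.65 CPM (log2FC = 0.82), and Ptges, a glutathione-dependent membrane enzyme of prostaglandin E synthesis, from 5.88 ± 0.843 to 21.8 ± 1.08 CPM (log2FC = 1.89). Selenow, a small selenoprotein, rose by 24.4% (log2FC = 0.32, edgeR adjusted P = 0.00307), although with control replicate 1 alone as the control its adjusted P was 0.159.

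On the lower side, Sesn1, a sestrin, fell by 43.4% (log2FC = -0.82, edgeR adjusted P = 1.43e-05), and Blvra, the biliverdin reductase that acts after heme oxygenase, by 19% (log2FC = -0.3, edgeR adjusted P = 0.000108). Gsk3b, a kinase that promotes NRF2 turnover, and Gstt3, a transferase, passed at adjusted P of 0.0396 and 0.0468, and each lost its call in DESeq2 and in 5 of 6 fits that left out 1 library. Selenop, the secreted selenium carrier that the liver makes in quantity, was counted 25, 66 and 47 times in the control libraries and 20, 10 and 12 times in the LPS libraries (log2FC = -1.57, SE 0.39, edgeR adjusted P = 0.00577). Its high libraries were control replicates 2 and 3, where the hepatocyte markers summed to 491 and 657 counts against at most 117 elsewhere. With control replicate 1 alone as the control its log2FC was -0.75 with an adjusted P of 0.429.

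**Figure D5:**
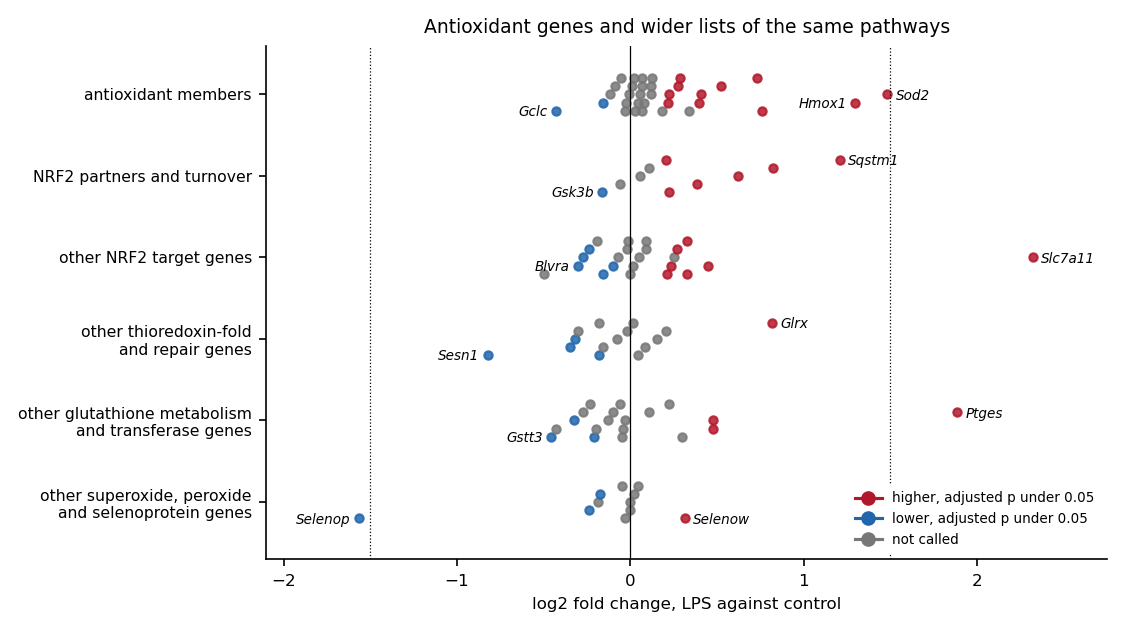
Log2 fold change of LPS against control (horizontal axis) of the 33 tested antioxidant genes and of the 78 tested genes of 5 wider pathway lists, 1 point per gene, with dotted lines at -1.5 and 1.5 and vertical offsets within a list for visibility alone. Slc7a11 at 2.32 and Ptges at 1.89 lie to the right of the dotted line at 1.5, and Selenop at -1.57 lies to the left of that at -1.5. With control replicate 1 alone as the control, the log2FC of Selenop was -0.75.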

How the data were processed

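RNA-seq of N9 microglia was taken as 6 libraries, grouped by the treatment and replicate number in the labels. The authors deposited whole-number counts of reads per gene, without normalization. The submitters' processing notes name featureCounts 1.5.0-p3 and the build mm10. The aligner, the annotation and the use of strand are not given in the sources used here. In the deposited table no line lacked a gene name, and 18 further per-sample columns, the group means and the authors' own fold changes and P-values were not used.

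The groups were compared with the quasi-likelihood test of edgeR 4.0.16 (R 4.3.3), with TMM scaling, filterByExpr by group, a prior count of 0.125, no covariate and Benjamini-Hochberg adjustment over all 12296 tested genes. Intervals are at 95%. With 3 libraries against 3, an exact permutation test of a single value cannot go below 0.1. Depth was 16363767 to 17956772 counts per library, and the floor of 3 counts covers counting error only. Replicates within a group differed by more than sampling noise (chi-square per gene 3.61 to 7.82). Every member is reported, and from each of 5 wider lists the called genes with the largest rise and fall. The members and lists were chosen with earlier results of these data known. Alternatives were RLE factors, DESeq2 1.42.0, no filter, a mean of 10 counts, robust dispersion, a prior count of 2, a replicate block and each library left out. No filter with robust dispersion and control replicate 1 alone as the control were added after seeing the data. Promoter windows were searched with Python 3.11.15, and figures used matplotlib 3.10.9. Of the genes that overlap a member, 1 is not reported here.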

Additional observations from a re-analysis of the deposited data

How the results depend on the processing

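The counts of antioxidant genes called were stable in direction. They were 11 higher, 2 lower and 0 past both thresholds with RLE size factors, DESeq2 and a filter at a mean of 10 counts. They were the same with no filter and with no filter and robust dispersion, and robust dispersion alone gave 12, 2 and 0. The genes called among all tested were 4221 of 12296 in the main fit and 4218 of 12296 with RLE factors. In DESeq2 they were 3595 of 13916, and with the mean filter 4194 of 12240. With no filter they were 4411 of 22311, or 4379 of 22311 with robust dispersion added, and with robust dispersion alone 4327 of 12296. Leaving out 1 library gave 11 to 12 antioxidant genes higher and 1 to 2 lower. The lower count was 1 without control replicate 3, LPS replicate 2 or LPS replicate 3, each time because Gpx1 was lost. Over the same fits the wider lists gave 17 to 20 higher and 10 to 15 lower, with 10 without LPS replicate 2, and all tested genes 1833 to 2152 higher and 1546 to 1929 lower. With control replicate 1 alone as the control, an alternative added after seeing the data, 1151 genes of all tested were lower in place of 1927, 1 antioxidant gene was lower, and the log2FC of uncalled genes changed sign in Gss (0.013), Txn2 (-0.0204), Prdx2 (-0.0034), Gsto1 (-0.0232), Gstp1 (-0.0531) and Mgst1 (-0.0095). The lone control library is there assumed to vary like the LPS libraries.

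Leaving out 1 library also changed the sign of genes near 0, none of them called, whose log2FC then ranged from -0.189 to 0.0297 in Nqo1, -0.071 to 0.0067 in Prdx3, -0.0373 to 0.0384 in Gpx4, -0.0381 to 0.0653 in Gstm1, -0.013 to 0.0481 in Gsto1, -0.0189 to 0.129 in Mgst1, -0.0732 to 0.0745 in Gss, -0.0042 to 0.472 in Gpx3, -0.0008 to 0.122 in Bach1 and -0.0586 to 0.015 in Txnrd2. The cause was not tested. The 11 genes higher with LPS kept their call in all 6 of these fits.

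Same-numbered libraries of the groups deviated together only weakly (correlations of 0.131, 0.048 and 0.005), and control replicate 2 correlated best with LPS replicate 3, so the numbers were not taken to pair the samples. With the replicate block, 12 antioxidant genes were higher and 2 lower, Sod1 being added with an adjusted P of 0.0349, and 4474 of all tested genes were called in place of 4221. The counts of Sod3, Gpx7 and Gpx8 were too low to pass the filter, and those of Gpx3 left its interval wide. Whether depth or absent expression lies behind these low counts was not tested.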
